A study of Drosophila melanogaster with 11 samples.

Results

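The maltases and related enzymes of sugar digestion are represented here by 8 genes, Mal-A1, Mal-A2, Mal-A3, Mal-A4, Mal-A7, Mal-A8, tobi and Amyrel. The probesets were found by gene name, from the probesets that the platform table assigns to only 1 of these genes. Each gene had 1 such probeset, so 8 probesets of the 18769 tested, and 8 of 11982 measured genes, are described. Whole third-instar larvae of Drosophila melanogaster were hybridised to 11 Affymetrix Drosophila 2.0 arrays, 1 biotin-labelled cRNA sample per array. Larvae with both transgenes (P/act-Gal4, genotype label y w; + /+; +/P-act) gave 2 male arrays and 1 female array. Controls with the driver alone (act-Gal4 control, y w; + /+; +/act-Gal4) gave 2 male and 2 female arrays, as did controls with the P transgene alone (P control, y w; + /+; +/P). All groups share the y w background. The transgene labelled P is read here as line HP1-21, taken to be an RNA interference construct against the heterochromatin protein HP1, and act-Gal4 as a driver that makes the activator Gal4 broadly, from an actin promoter. Groups follow the titles, with which the genotype and gender labels match. Other labels disagree: the description calls all 5 female arrays male, and the strain label of 7 of the 8 control arrays names both transgenes. The titles and genotypes were used throughout, and a mislabelled array would alter the comparisons it enters. The study asked for differences between larvae with both transgenes and their controls in each sex.

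Larvae break starch down with alpha-amylases and cut the maltose that is released, along with other short sugars, with alpha-glucosidases called maltases. In insects much of this work is done in the midgut, where maltases act outside the cells that make them. The Mal-A genes lie side by side on chromosome arm 2R, in the order Mal-A1 to Mal-A8 with no other gene between them in the RefSeq table (Release 6), and Mal-A1, Mal-A2 and Mal-A3 were once called larval visceral proteins. Amyrel, also on 2R, encodes an alpha-amylase that is distantly related to the classical amylases Amy-p and Amy-d. The gene tobi ("target of brain insulin"), on 3R, encodes an alpha-glucosidase whose transcript is known to respond to insulin-like peptides, to the adipokinetic hormone and to dietary protein and sugar.

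Median intensity was 13.7 to 15.8 on the 11 arrays, and no detection calls were available. A level below the median of its array is reported as such below, and a fold that starts from one is uncertain in size. Between replicate arrays the median log2 difference per probeset was 0.0925 to 0.135, and precision is limited by how few arrays there are. The transcript of the HP1 gene had a log2 change of −0.53 ± 0.0943 (SE) with both transgenes in males (limma adjusted p = 0.00124), and of −0.0017 ± 0.122 on the female array labelled P/act-Gal4 (adjusted p = 0.994). Directions given for females with both transgenes therefore rest on a single array, without a replicate, on which the HP1 transcript was not lower as its label would have it. The summed intensity of 19 male germ-line markers was 6190 to 8906 on male arrays and 307 to 449 on female arrays. The log2 level of the 3′ control probeset of eIF4a minus that of its 5′ one, a sign of RNA integrity and labelling, was 3.66 and 3.72 in P/act-Gal4 males and 3.47 on the female array labelled P/act-Gal4, against 3.89 to 4.98 in the 8 controls. Whether this contributed to any difference below was not tested.

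**Figure D1:**
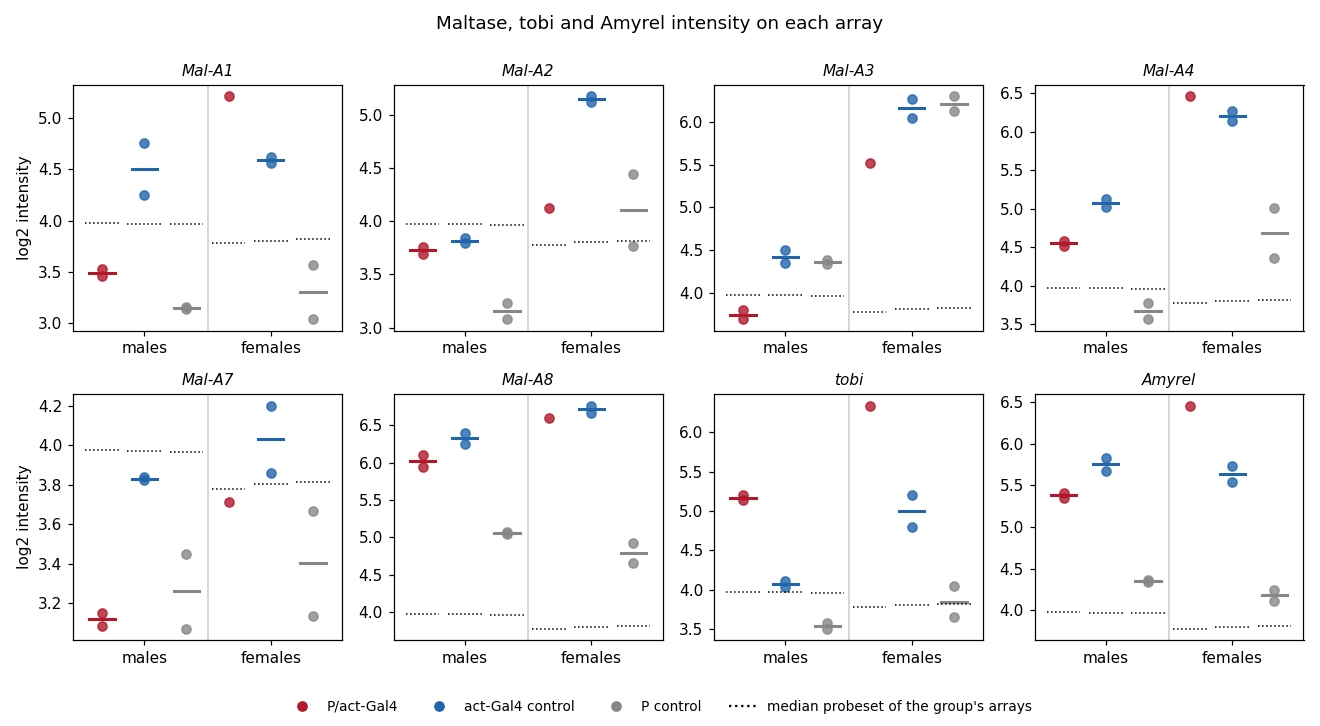
Log2 intensity of the 8 genes on each of 11 arrays. Points are arrays, short bars are means of groups with 2 arrays, and dotted lines mark the median probeset of the group's arrays. In tobi the P/act-Gal4 arrays of each sex lie above all controls of that sex, and in Mal-A3 they lie below.

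The transcript of tobi was the only one of the 8 that was higher in P/act-Gal4 larvae than in each control of the same sex, in both sexes. Its intensity was 36.7 and 35.1 in P/act-Gal4 males, against 16.4 and 17.3 in act-Gal4 control males and 11.9 and 11.4 in P control males. In females it was 80.9 on the female array labelled P/act-Gal4, against 36.9 and 27.8 in act-Gal4 controls and 12.5 and 16.5 in P controls. The groups did not overlap in either sex, and the order was P/act-Gal4, act-Gal4 control, P control in both. Against the mean of both controls tobi rose in males by 1.36 ± 0.128 (SE) on the log2 scale, 2.57-fold (adjusted p = 1.53e-05). The corresponding rise in females was 1.91 ± 0.165, 3.77-fold (adjusted p = 1.73e-05). Set against act-Gal4 controls alone the log2 changes were 1.09 in males (adjusted p = 0.000203) and 1.34 in females (adjusted p = 0.000797). With any 1 array left out, these 2 changes ran from 1.05 to 1.13 and from 1.13 to 1.54, and all adjusted p-values stayed at or below 0.00376. P control males and P control female replicate 1 lay below the median of their arrays. The log2 change of 1.62 against that control in males is therefore uncertain in size. So are the folds against the mean of both controls, which include these arrays. With the controls of a sex pooled into 1 group, the rise in females did not pass (adjusted p = 0.0573).

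Mal-A3, a maltase gene of the 2R cluster, was lower in P/act-Gal4 larvae in both sexes, against each control. It stood at 12.9 and 13.9 in P/act-Gal4 males, against 20.4 and 22.6 in act-Gal4 control males and 20.9 and 20.3 in P control males. The array labelled P/act-Gal4 female gave 45.9, against 77.3 and 66.4 in act-Gal4 control females and 78.7 and 70.0 in P control females. In each sex the controls overlapped each other and the P/act-Gal4 arrays lay below all of them. The fall against the mean of both controls was 0.65 ± 0.0934 on the log2 scale in males (a log2 change of −0.65, 1.57-fold lower, adjusted p = 0.000278). In females the log2 change was −0.67 ± 0.121, 1.59-fold lower (adjusted p = 0.00287). The size in males is uncertain, since both male arrays with both transgenes were below the array median. Over all alternatives tried, other than changes of threshold, the log2 change ran from −0.71 to −0.60 in males and from −0.72 to −0.61 in females, with adjusted p-values of at most 0.00789 and 0.037.

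For Amyrel the comparison depended on which control and which sex was taken. Its intensity was 42.4 and 40.9 in P/act-Gal4 males, against 56.9 and 51.1 in act-Gal4 control males and 20.2 and 20.6 in P control males. The male P/act-Gal4 arrays thus lay between the controls. On the female array labelled P/act-Gal4 it was 87.7, against 46.6 and 53.2 in act-Gal4 controls and 17.3 and 18.9 in P controls, above all of them. In males Amyrel rose by 1.03 (log2 change) against the P control alone (adjusted p = 2.45e-05). Set against act-Gal4 controls alone it fell by 0.37 on the log2 scale (adjusted p = 0.0158). That fall did not pass when the first act-Gal4 control male array was left out (adjusted p = 0.141), nor when either P/act-Gal4 male array was (0.0561 without replicate 1, 0.0985 without replicate 2). The log2 change against the mean of both controls, 0.33 ± 0.0876 in males (adjusted p = 0.0145), averages these opposite differences, and did not pass without either P/act-Gal4 male array (0.111 and 0.0701) or without act-Gal4 control male replicate 2 (0.0516). In females Amyrel rose by 1.55 ± 0.113, 2.92-fold, against the mean of both controls (adjusted p = 5.23e-06), and by 0.82 against act-Gal4 controls alone (adjusted p = 0.00155).

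Mal-A8, at the far end of the cluster from Mal-A1, stood above the array median on all 11 arrays. It measured 68.6 and 61.7 in P/act-Gal4 males, against 76.5 and 84.4 in act-Gal4 control males and 33.8 and 33.1 in P control males. In females it was 97.1 on the female array labelled P/act-Gal4, against 109 and 102 in act-Gal4 controls and 25.4 and 30.5 in P controls. In both sexes P/act-Gal4 larvae lay close to the act-Gal4 control and clear of the P control. Mal-A8 rose against the P control alone by 0.96 in males (adjusted p = 8.01e-05) and by 1.80 in females (adjusted p = 3.1e-06). Set against act-Gal4 controls alone the log2 changes were −0.30 in males (adjusted p = 0.062) and −0.11 in females (adjusted p = 0.662). The 95% intervals of these changes were −0.55 to −0.062 and −0.41 to 0.18. The male value passed without P control female replicate 1 or 2 (adjusted p = 0.0328 for both).

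For Mal-A1 and Mal-A4, as for Amyrel, P/act-Gal4 males lay between the controls, and the female array labelled P/act-Gal4 lay above all female controls. Mal-A1 was 10.97 and 11.5 in P/act-Gal4 males, against 27.1 and 19.0 in act-Gal4 control males and 8.9 and 8.8 in P control males. It was 37.1 on the female array labelled P/act-Gal4, against 23.7 and 24.6 in act-Gal4 controls and 11.8 and 8.2 in P controls. P/act-Gal4 males and both P control groups lay below the array medians. In males Mal-A1 fell by 1.02 on the log2 scale against act-Gal4 controls alone (adjusted p = 0.00113). In females the change against that control was 0.62 (adjusted p = 0.09), and it passed without P control female replicate 1 or 2 (0.0315 for both). Mal-A4 was 24.0 and 23.0 in P/act-Gal4 males, against 35.0 and 32.4 in act-Gal4 control males and 11.8 and 13.7 in P control males. It was 87.9 on the female array labelled P/act-Gal4, against 70.2 and 77.0 in act-Gal4 controls and 32.3 and 20.6 in P controls. Male P/act-Gal4 arrays of Mal-A4 lay between the controls, as with Amyrel. Its log2 change in males was 0.89 against the P control alone (adjusted p = 0.00239), and with the act-Gal4 control alone it was −0.52 (adjusted p = 0.0394). The second call ended when any 1 of the 6 male arrays was left out (adjusted p = 0.0514 to 0.188). In females Mal-A4 rose by 1.77 against the P control alone (adjusted p = 9.86e-05), and its change against the act-Gal4 control was 0.26 (adjusted p = 0.488).

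Mal-A2 and Mal-A7 lay below the array median on most arrays, 7 and 9 of 11. Mal-A2 was 13.5 and 12.9 in P/act-Gal4 males, against 13.9 and 14.3 in act-Gal4 control males and 9.4 and 8.4 in P control males, all below the array medians. It was 17.5 on the female array labelled P/act-Gal4, against 36.1 and 34.8 in act-Gal4 controls and 13.6 and 21.8 in P controls, whose replicates lay on either side of it. In males Mal-A2 passed against P controls alone (log2 change 0.57, adjusted p = 0.0281), and did not when any 1 of the 4 arrays compared was left out (0.0672 to 0.158). In females Mal-A2 fell by 1.02 on the log2 scale against act-Gal4 controls alone (adjusted p = 0.00831). Mal-A7 was 8.9 and 8.5 in P/act-Gal4 males, against 14.3 and 14.2 in act-Gal4 control males and 10.9 and 8.4 in P control males. It was 13.1 on the female array labelled P/act-Gal4, against 18.4 and 14.5 in act-Gal4 controls and 12.7 and 8.8 in P controls. Only act-Gal4 control females exceeded the array median for Mal-A7, so its differences are uncertain in size. It passed in males against act-Gal4 controls alone (log2 change −0.71, adjusted p = 0.00956), a call that ended without act-Gal4 control male replicate 1 (0.0552) or 2 (0.0502) or P/act-Gal4 male replicate 2 (0.0698).

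Counted over the 8 genes, 3 rose and 1 fell in P/act-Gal4 males against the mean of both controls, where 16.3% of all probesets rose and 12.9% fell. On the female array labelled P/act-Gal4 5 rose and 1 fell, where 9.20% of all probesets rose and 6.69% fell. The median log2 change of the 8 was 0.21 in males and 0.93 in females, against −0.026 and −0.036 over all probesets. Without P/act-Gal4 male replicate 1 or 2, 2 genes, instead of 4, passed in males, while calls over all probesets numbered 3751 and 3392 instead of 5482. Taken against the P control alone, 5 genes rose and 1 fell in males (14.7% and 11% of all probesets), and 5 rose and 1 fell in females (10.3% and 8.74%). Taken against act-Gal4 controls alone, 1 rose and 5 fell in males (15.3% and 12.8% of all probesets), and 2 rose and 2 fell in females (7.48% and 4.92%). The 6 calls in males against the act-Gal4 control became 3 without act-Gal4 control male replicate 1 or without P/act-Gal4 male replicate 2, and calls over all probesets were then 3640 and 3544 instead of 5275. P/act-Gal4 arrays lay beyond all controls of their sex for 2 of 8 genes in males, where the share of all probesets was 39.6%, and for 5 of 8 in females, where it was 51.0%. These shares, 2 and 5 of 8, are near the background. Comparisons with the act-Gal4 control and with the P control share the P/act-Gal4 arrays.

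**Figure D2:**
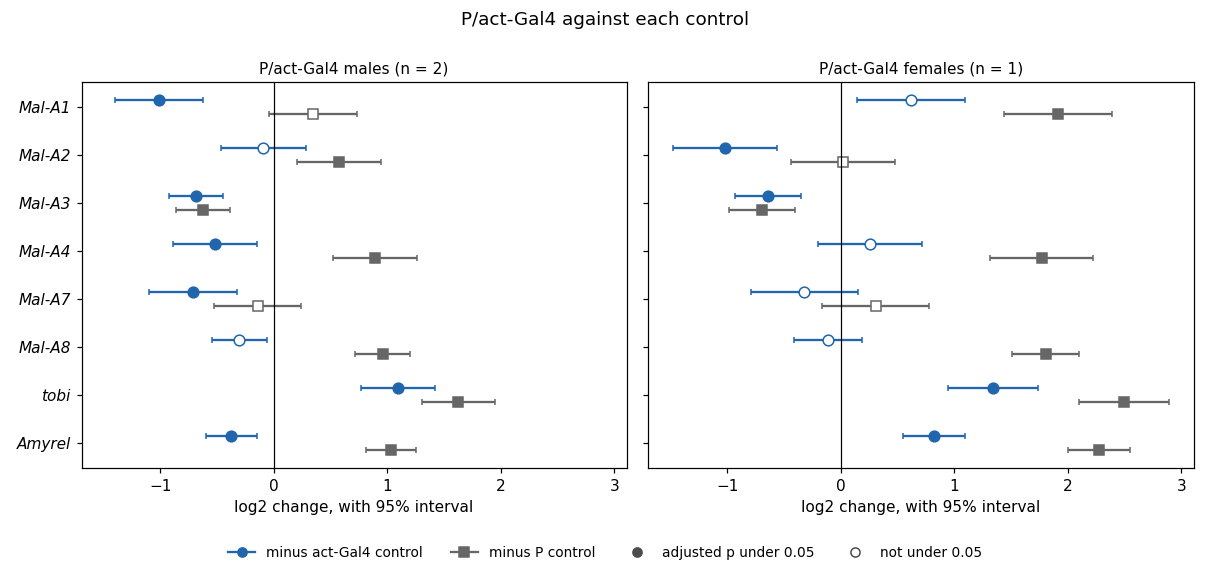
Log2 change of the 8 genes in P/act-Gal4 males (left, 2 arrays) and on the female array labelled P/act-Gal4 (right), minus the act-Gal4 control (circles) and minus the P control (squares), with 95% intervals of the fit. Filled symbols had an adjusted p under 0.05. For tobi both changes lie above 0 and for Mal-A3 both lie below 0 in each sex. In males the changes of Mal-A1, Mal-A2, Mal-A4, Mal-A8 and Amyrel lie on opposite sides of 0. On the female array those of Mal-A2, Mal-A7 and Mal-A8 do so.

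The controls themselves differed for most of these genes. In males 7 of 8 were higher in the act-Gal4 control than in the P control, where 10% of all probesets were, and in females 7 of 8 were, where 7.82% of all probesets were. Mal-A3 was the gene that did not pass in either sex, with log2 differences of 0.058 ± 0.108 (adjusted p = 0.795) in males and −0.053 ± 0.108 (adjusted p = 0.804) in females. The median log2 difference of the 8 was 0.96 in males and 1.22 in females, against −0.016 and −0.0076 over all probesets. Amyrel differed by 1.40 ± 0.101 in males (2.65-fold, adjusted p = 3.07e-06) and by 1.46 ± 0.101 in females (2.75-fold, adjusted p = 1.76e-06). Mal-A4 differed by 1.41 ± 0.169 in males and 1.51 ± 0.169 in females (adjusted p = 0.000158 and 8.13e-05). Mal-A1 differed by 1.36 ± 0.176 and 1.30 ± 0.176 (adjusted p = 0.000276 and 0.000357), from P control levels below the array medians. For Mal-A8 the difference was 1.26 ± 0.111 in males and 1.92 ± 0.111 in females. This gap between the sexes passed its own test (−0.65 ± 0.156, adjusted p = 0.0253), and no other of the 8 genes passed it.

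Both act-Gal4 control arrays lay above both P control arrays for the same number, 7 of 8 genes, in males and in females, whereas 27.8% and 24.6% of all probesets did so. In males the calls of Mal-A2 (0.66, adjusted p = 0.018), Mal-A7 (0.57, 0.0434) and tobi (0.53, 0.0274) were the weakest. The count of 7 in males became 4 without act-Gal4 control male replicate 1 or 2 or P control male replicate 2, and 4 with quantile normalization applied once more. Over all probesets the calls with those arrays left out were 1901, 1946 and 2036, and 3415 with quantile normalization, instead of 3455. Mal-A7 in females (0.63, adjusted p = 0.0307) did not pass without act-Gal4 control female replicate 1 (0.184), P control female replicate 2 (0.177) or either P/act-Gal4 male array (0.0522 for both). The other members that passed in females also passed with any 1 array left out.

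**Figure D3:**
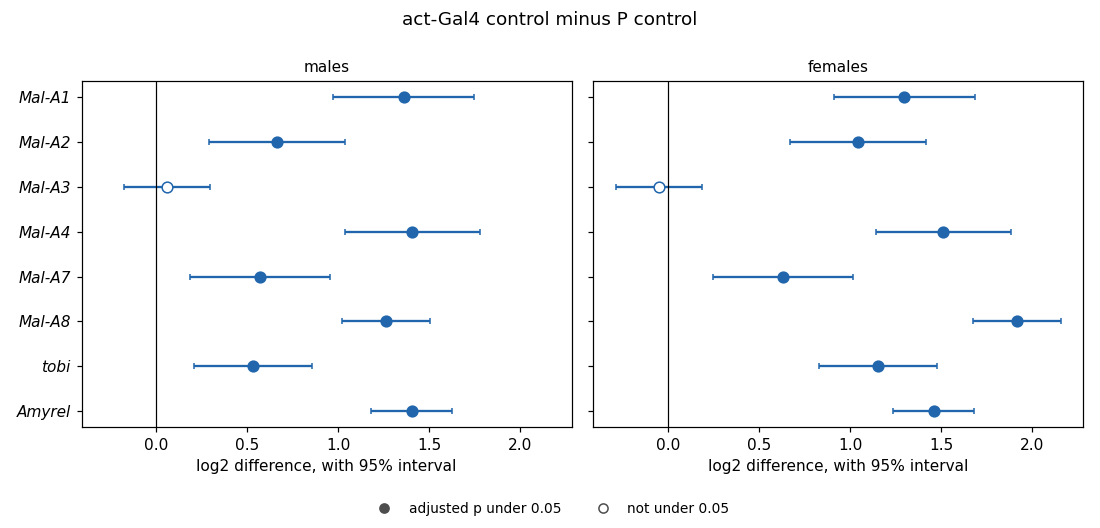
Log2 difference of the 8 genes between act-Gal4 control and P control larvae, with 95% intervals, in males (left) and females (right), 2 arrays per group. Filled circles had an adjusted p under 0.05. Intervals of 7 genes lie above 0 in both sexes, and those of Mal-A3 include 0.

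Between the sexes, 4 of 8 genes were lower in control males than in control females and none was higher, where 44.4% of all probesets were lower. Over all probesets the median of the log2 differences, control males minus control females, was −0.17, and −0.33 when all arrays were set to a common median. The median intensity of the arrays themselves was higher in control males (15.5 to 15.8) than in control females (13.8 to 14.2). Of the calls, 26.8% were higher in males as deposited and 15.5% with a common median, so the sex differences are best read against these shifts. Mal-A3 had the largest, −1.79 ± 0.0762 (3.47-fold lower in males, adjusted p = 1.71e-09), with no overlap between the sexes. It was lower in males within each genotype, by 1.78 on the log2 scale in P/act-Gal4 larvae (−1.78, adjusted p = 7.07e-07), by 1.74 in act-Gal4 controls (−1.74, adjusted p = 1.08e-07) and by 1.85 in P controls (−1.85, adjusted p = 5.22e-08). Mal-A2 and Mal-A4 differed by −1.14 ± 0.12 (adjusted p = 8.64e-06) and −1.07 ± 0.12 (adjusted p = 1.44e-05), and each passed within both controls. For tobi the difference was −0.62 ± 0.104 (adjusted p = 0.000414), which passed in act-Gal4 controls (−0.93, adjusted p = 0.000438) and not in P controls (−0.31, adjusted p = 0.112). With a common median, Mal-A7 (−0.32, adjusted p = 0.0254) and Mal-A8 (−0.21, adjusted p = 0.028) were lower in control males as well. The controls differed in direction for Mal-A8, however, with −0.39 in act-Gal4 controls (adjusted p = 0.0164) and 0.27 in P controls (adjusted p = 0.0698). Amyrel did not pass between control males and females (0.14 ± 0.0715, adjusted p = 0.1).

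The difference of the effect of both transgenes between the sexes passed for 3 of 8 genes, all with a lower value in males, where 5.93% of all probesets did so. For Mal-A1 the log2 change against the mean of both controls was −0.34 in males and 1.27 in females, a difference of −1.60 ± 0.25 (adjusted p = 0.00173). For Amyrel it was 0.33 in males and 1.55 in females, a difference of −1.22 ± 0.143 (adjusted p = 0.000273). Both passed against either control alone and with any 1 other array left out, and neither passed with the controls of a sex pooled (adjusted p = 0.508 and 0.679). For Mal-A4 the values were 0.18 and 1.01, a difference of −0.83 ± 0.24 (adjusted p = 0.0451). That call ended when any 1 of the 6 male arrays or of the 2 act-Gal4 control female arrays was left out (adjusted p = 0.0521 to 0.136), against P controls alone (0.0525) or act-Gal4 controls alone (0.103), with controls pooled (0.831) and with quantile normalization applied once more (0.0876). Without P control female replicate 2 the count became 6, and calls over all probesets 2594 instead of 2232. For Mal-A3 the difference was 0.014 ± 0.152, with a 95% interval of −0.32 to 0.35. The effect on tobi differed by −0.56 ± 0.209 (adjusted p = 0.12). All of these female values come from a single array.

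The 4 other maltases measured were not members but belong to the same family. Mal-B2, from the pair of maltase genes outside the cluster, was 104 and 102 in P/act-Gal4 males, against 74.2 and 83.7 in act-Gal4 control males and 46.2 and 41.1 in P control males. It rose by 0.82 ± 0.102 in males (adjusted p = 0.000112) and by 0.72 ± 0.132 in females (adjusted p = 0.00305), an order of groups like that of tobi. Mal-A5, inside the cluster, was 1244 and 1217 in P/act-Gal4 males, against 794 and 827 in act-Gal4 control males and 902 and 923 in P control males. It rose by 0.52 ± 0.0743 in males (adjusted p = 0.000294) and by 0.35 ± 0.0959 in females (adjusted p = 0.0289). Mal-A6, next to it, passed in females (0.66 ± 0.0973, adjusted p = 0.000766) and not in males (0.08 ± 0.0754, adjusted p = 0.499). Mal-A6 was 62.3 on the female array labelled P/act-Gal4, against 66.6 and 69.7 in act-Gal4 controls and 23.5 and 22.1 in P controls. It was 34.0 and 34.4 in P/act-Gal4 males, against 41.4 and 42.6 in act-Gal4 controls and 25.6 and 24.3 in P controls. P/act-Gal4 arrays thus lay between the controls in both sexes, and the changes of Mal-A6 average opposite differences. Between the controls, Mal-A6 differed by 0.75 in males and 1.58 in females (adjusted p = 0.000121 and 3.24e-07), while Mal-A5 did not pass (adjusted p = 0.216 and 0.857). Mal-B1 passed in no comparison of the 6.

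The classical amylases Amy-p and Amy-d share 1 probeset and cannot be told apart. It measured 329 and 289 in P/act-Gal4 males, against 614 and 643 in act-Gal4 control males and 360.2 and 370.1 in P control males. In females it was 329 on the female array labelled P/act-Gal4, against 291 and 303 in act-Gal4 controls and 256 and 239 in P controls. P/act-Gal4 males lay below all male controls, a log2 change of −0.64 ± 0.0826 (adjusted p = 0.000148), while in females the change was 0.28 ± 0.107 (adjusted p = 0.107). The difference between the sexes passed (−0.91 ± 0.135, adjusted p = 0.00122).

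**Figure D4:**
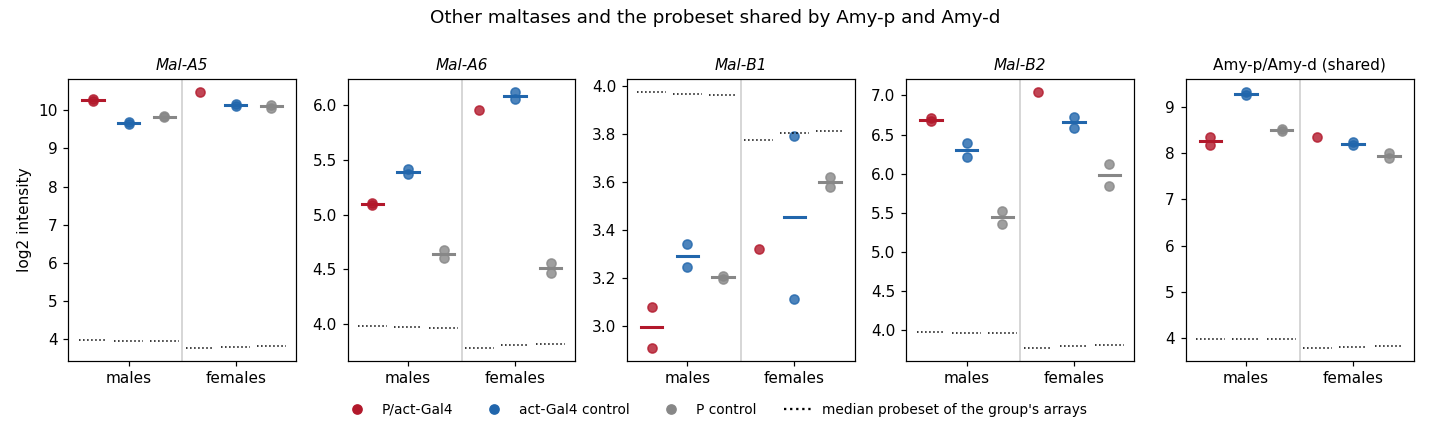
Log2 intensity on each array of the 4 maltase genes outside the described set and of the probeset shared by Amy-p and Amy-d, with points, bars and dotted lines for arrays, group means and array medians. Mal-B2 is highest in P/act-Gal4 larvae of each sex, and the amylase probeset is lowest in P/act-Gal4 males among the male groups.

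Genes that take up, store or sense sugar were counted in lists by role. Over all probesets 16.3% rose and 12.9% fell in males, and 9.20% rose and 6.69% fell in females. Of 7 sugar transporter genes, 1 rose and 1 fell in P/act-Gal4 males, sut2 by 0.50 (adjusted p = 0.0252) and sut4 with a log2 change of −0.46 (adjusted p = 0.0178), and 0 passed in females by limma's test (1 higher and 1 lower had an unadjusted p under 0.05). The list medians were 0.073 in males and 0.068 in females, and the transporter counts in males are near the shares of all probesets. Of 9 genes of trehalose and glycogen metabolism, 4 rose and 1 fell in males (median 0.23), led by Hex-A, a hexokinase gene, at 0.75 (adjusted p = 3.33e-05). In females 1 rose and 5 fell (median −0.34), led by AGBE, the glycogen branching enzyme gene, at −0.79 (adjusted p = 0.000384). Of 12 nutrient and hormone regulators, 5 rose and 0 fell in males by limma's test (median 0.16, with 1 lower at an unadjusted p under 0.05), and 1 rose and 2 fell in females (median −0.08). Ilp8, an insulin-like peptide gene, led in males at 1.37 (adjusted p = 2.19e-06), with controls below the array median and P/act-Gal4 males above it, at 21.0 and 19.5. No such rise was seen on the female array labelled P/act-Gal4, where Ilp8 was 8.5, against 8.9 to 10.4 in female controls, all below the array medians. AkhR, the receptor gene of the adipokinetic hormone, rose by 0.97 ± 0.101 in males (adjusted p = 3.08e-05), with a female value of 0.41 (adjusted p = 0.0559). InR, the insulin receptor gene, rose by 0.72 ± 0.0961 in males (adjusted p = 0.000174) and by 0.62 ± 0.124 in females (adjusted p = 0.00523). Between the controls AkhR was higher with act-Gal4 in both sexes (0.45 and 0.38, adjusted p = 0.0201 and 0.0444), and InR lower (−0.94 and −0.59, adjusted p = 0.000138 and 0.00339). InR was 68.8 and 77.8 in P/act-Gal4 males, nearer to P control males (63.7 and 59.2) than to act-Gal4 control males (29.7 and 34.5). The female array labelled P/act-Gal4 gave 68.9, against 51.5 and 58.5 in P controls and 35.5 and 37.4 in act-Gal4 controls.

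Sums of tissue markers also differed between the groups, and not in the same way for each tissue and sex. The summed intensity of 11 fat body markers was 26280 to 26683 in P/act-Gal4 males, against 28588 to 28719 in act-Gal4 control males and 21816 to 22227 in P control males. It was 32791 on the female array labelled P/act-Gal4, against 35163 to 35770 in act-Gal4 control females and 20951 to 21121 in P control females. This order, act-Gal4 control above P/act-Gal4 above P control, is that of Mal-A8 in both sexes. In males it is also that of Amyrel, Mal-A1, Mal-A2 and Mal-A4. Between the controls, 7 of 11 fat body markers were higher with act-Gal4 in males and 8 of 11 in females, with 0 lower by limma's test, also at an unadjusted p under 0.05. Of all probesets, 10% were higher with act-Gal4 in males and 7.82% in females. For 28 midgut markers the sums were 32517 to 32641 in P/act-Gal4 males, against 36306 to 36571 in act-Gal4 control males and 31537 to 31711 in P control males. In males the midgut sums thus had the same order as the fat body sums. The midgut sum was 33280 on the female array labelled P/act-Gal4, against 35919 to 36463 in act-Gal4 control females and 39167 to 39857 in P control females, where act-Gal4 was the lower control. Among the 28 midgut markers 10 were higher and 3 lower with act-Gal4 in males, and 6 higher and 10 lower in females. Of all 18769 probesets, 1885 were higher and 1570 lower with act-Gal4 in males, and 1467 higher and 1643 lower in females.

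Salivary glue markers, 6 genes that rise late in larval life, summed to 30523 to 30702 in P/act-Gal4 males, against 43563 to 43993 in act-Gal4 control males and 33010 to 33200 in P control males. Their sum was 39162 on the female array labelled P/act-Gal4, against 34346 to 34664 in act-Gal4 control females and 25616 in both P control females. A list of 6 measured genes of feeding and stage, which shares Sgs1 and Fbp1 with other lists and holds MsrA, named below, gave 5890 to 5942 in P/act-Gal4 males, against 8112 to 8177 in act-Gal4 control males and 6026 to 6302 in P control males. It gave 8980 on the female array labelled P/act-Gal4, against 8751 to 8945 in act-Gal4 control females and 4884 to 4985 in P control females. P/act-Gal4 males lay below both controls in this sum, but nearer to the P control. Mal-A1 was also nearer to the P control in these males, but above it. On the female array labelled P/act-Gal4 the sum was only just the highest. There the median log2 change of the 6 genes against the mean of both controls was −0.029. As no deposited value was 0 and no detection calls were available, whether each marker was detected on an array cannot be told. The part of tissue make-up or stage in the differences of the 8 genes was not tested, and fewer cells of a type and less RNA per cell cannot be told apart in whole larvae.

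**Figure D5:**
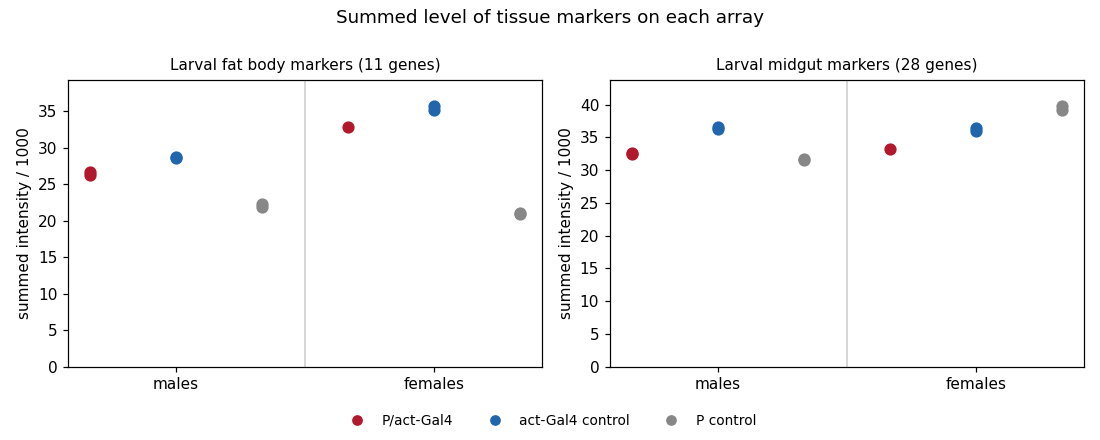
Summed linear intensity of 11 larval fat body markers (left) and 28 larval midgut markers (right) on each of 11 arrays (axis scaled down for display). Fat body sums are lowest in P control larvae of both sexes, and midgut sums are lowest in P control males but highest in P control females.

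Among themselves the 8 genes did not follow a single pattern. Over the 11 arrays, which share groups and so are not independent points, Pearson's r of log2 intensity was 0.94 between Mal-A8 and Amyrel and 0.89 between Mal-A1 and Mal-A4. Mal-A3 stood apart, with r of −0.11 with Amyrel, −0.019 with Mal-A8 and 0.063 with tobi, although it is a neighbour of Mal-A4 (0.56) and Mal-A2 (0.71) on the chromosome. Of 2171 probesets of named genes that varied and were bright enough, those most like each member were listed by r over the same 11 arrays. They were sro (0.97) and qsm (0.96) for tobi, yellow-d (0.97) and Kdsr (0.97) for Mal-A3, and Cpr51A (0.97) and ras (0.97) for Amyrel. For Mal-A8 they were Paics (0.97) and dind (0.97), for Mal-A4 loj (0.97) and Fbp2 (0.97), and for Mal-A1 frm (0.95) and MsrA (0.95). Mal-A2 was most like shop (0.96) and Scp2 (0.96), and Mal-A7 most like Spase25 (0.94) and lsn (0.93).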

How the data were processed

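The authors deposited 1 intensity per probeset and array, on the linear scale, normalized and summarized with RMA, per the submitters' processing notes. No version, option or joint normalization of the arrays is given in the sources used here. All values are above 0, the lowest being 3.63, and log2 was taken with no pseudocount, filter or detection call. Of 18952 probesets, 183 Affymetrix controls were left out. Platform symbols were updated through gene IDs with the RefSeq table (Release 6). Sequences of these genes are not used here.

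Group means (6 groups, 11 arrays) were fitted jointly, using limma 3.58.1 under R 4.3.3, with 5 residual and 6.29 prior degrees of freedom. The lone female array with both transgenes was assumed to vary like the rest. Moderated p-values from limma received Benjamini-Hochberg adjustment over 18769 probesets in each of 6 comparisons, and "passed", "rose" and "fell" mean an adjusted p under 0.05. Comparisons with a single control came from the same fit. Errors are standard errors of the fit. A gene of a list is represented by its brightest probeset. Nothing links an array to 1 of the 2 larval populations of the design text, so p-values cover only the spread between these arrays, which may be technical. Members were fixed by name, with their nearest genes in pattern taken as the 2 highest r among named probesets with a standard deviation of at least 0.25 and a mean log2 of at least 5. The called gene with the largest change in each list and comparison was named. Mal-A5 and Mal-B1 were outside this rule and were named after their values were seen, as were sut4 and AkhR where they are given in P/act-Gal4 larvae. Members and lists were chosen with earlier results of these data known. The procedure was tested on simulated data. Figures were drawn with matplotlib 3.10.9.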

Additional observations from a re-analysis of the deposited data

Results flagged for a closer look

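The effect of both transgenes differed between the sexes, by a test of the difference itself, for Mal-A1 (−1.60, males minus females on the log2 scale), Amyrel (−1.22) and Mal-A4 (−0.83). The difference between the controls, act-Gal4 minus P, was smaller in males than in females for Mal-A8, by −0.65 (adjusted p = 0.0253). The first 3 values rest on the single female array labelled P/act-Gal4.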

How the results depend on the processing

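The number of the 8 genes that passed was recomputed under 25 alternatives. Chosen after seeing the data were the sex difference in each control's own arrays (5 genes with act-Gal4, 3 with P) and leaving out arrays against each control alone. For that sex difference 41.1% of all probesets passed with act-Gal4 and 45.3% with P. Among values of single genes, 860 kept their direction and their call, 65 kept direction but no longer passed, 42 newly passed and 27 changed sign. Of these 27, 4 involved a value that passed, all against the act-Gal4 control alone: Amyrel (−0.37), Mal-A4 (−0.52) and Mal-A8 (−0.30) in males, and Mal-A8 (−0.11) in females. In the other 23 neither value passed. Against the P control alone these were Mal-A1 in males (0.34) and Mal-A2 (0.020) and Mal-A7 (0.31) in females, and against the act-Gal4 control alone Mal-A2 in males (−0.093). Mal-A8 between control sexes was 0.27 in P control arrays alone and ran from −0.13 to 0.0061 with 1 array left out, Amyrel was −0.044 with quantile normalization and −0.010 with a common median, and Mal-A1 ran from −0.26 to 0.010 with 1 array left out. For Mal-A7 in females the values were 0.054 (quantile), 0.025 (common median), and −0.14 to 0.13 with 1 array left out. For the difference of Mal-A3 between the sexes they were −0.022 (common median), −0.042 (act-Gal4 control alone), and −0.041 to 0.069 with 1 array left out. Between the controls Mal-A3 ran from −0.014 to 0.13 in males and from −0.16 to 0.057 in females with 1 array left out. With controls pooled, passing genes numbered 2 in males, 1 in females, 0 for the difference between the sexes (limma; 0 also at an unadjusted p under 0.05) and 2 between control sexes, while calls over all probesets were 2447, 445, 207 and 7908, instead of 5482, 2982, 2232 and 11398. With only probesets of mean log2 of at least 5, only 3 members were tested, of which 3 passed in females, 1 between control sexes, and 2 between the controls in each sex. Of all probesets tested in this way, 44.0% passed in females and 70.2% between control sexes. Between the controls 49.9% passed in males and 42.0% in females. Trend and robust options, array weights, and an adjusted p under 0.1 each gave 5 for the difference between the sexes. Calls over all probesets were then 2957, 2517 and 3172, instead of 2232. Male arrays alone gave 7 for both transgenes in males, with 6292 calls over all probesets instead of 5482. Between the controls in males, further quantile normalization gave 4, with 3415 calls over all probesets instead of 3455. A change of at least 1 left 1 for both transgenes in males and 4 between the controls in males. It left 397 and 304 calls over all probesets. With 1 array left out, counts were 2 to 6 for both transgenes in males, 6 to 7 in females, 2 to 6 for their difference, 4 to 5 between control sexes, 4 to 7 between the controls in males and 6 to 7 in females. Against the act-Gal4 control alone they were 3 to 7 in males and 4 to 5 in females, and against the P control alone 5 to 6 in males and 6 in females. The female array with both transgenes could not be left out of its own comparisons. No paired analysis was possible because no label gives replicate numbers that link arrays.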
